A study of Mus musculus with 13 samples.

Results

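The 6 mouse genes described here encode surface proteins through which antigen-presenting cells, and many tissue cells, restrain or help T cells: Cd274 (PD-L1), Pdcd1lg2 (PD-L2), Cd80, Cd86, Cd40 and Sectm1b. They were picked by name, with earlier results of these data known, from the 34745 genes of an RNA-seq table of mouse kidney, and all 6 were found in it. The record names no value that picked them, so their levels and differences are given below as a description, with no p-value, and the counts of them that passed a threshold support nothing. Of the 6, 5 were abundant enough to be tested among 15703 genes, and Pdcd1lg2 was not. Cd80 passed that filter through its LPS libraries alone.

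The study asked what loss of DsbA-L, a protein of mitochondria and peroxisomes encoded by Gstk1, does to kidney injury caused by lipopolysaccharide (LPS), the bacterial outer-membrane component used to model sepsis. Total RNA from renal tissue was sequenced in 13 libraries: wild type (WT) given saline (n = 3), Dsbal knockout (KO) given saline (n = 3), WT given LPS (n = 4) and KO given LPS (n = 3). LPS was given into the peritoneum at 10 mg/kg, and the naïve mice received 200 µL of saline by the same route. How the knockout was made, the mice's strain and age, and the time from injection to sampling are not given in the sources used here. Each label number was taken as 1 mouse. If libraries shared a mouse, the p-values below would measure only the spread between libraries.

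T cells read antigen together with a second signal from the presenting cell. CD80 and CD86 deliver it through CD28 and withdraw it through CTLA-4, PD-L1 and PD-L2 damp the T cell through PD-1, and CD40 receives a signal back from CD40 ligand that raises CD80 and CD86. Interferon gamma, acting through IRF1, is the best known inducer of PD-L1, and NF-κB acts downstream of both CD40 and the LPS receptor. In the kidney these molecules are known on macrophages and dendritic cells, and PD-L1 and CD40 also on tubular and endothelial cells.

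The libraries held 14372212 to 17668334 counts. Gstk1 had 297 to 830 counts in each WT library, 41 to 60 in each KO saline library and 1 to 27 in each KO LPS library. Xist, transcribed from the inactive X chromosome of females, had 11446 to 19041 counts in the 6 saline libraries and 2 to 10 in the 7 LPS libraries. The Y-linked Ddx3y had 0 counts in every saline library and 951 to 2996 in every LPS library. Treatment and sex therefore cannot be told apart, and each value of LPS against saline below is also male against female. The same holds for the 2 responses whose difference is given. KO against WT compared males only with LPS and females only with saline. Libraries of 1 group differed more under LPS than with saline, with a chi-square per degree of freedom of 12.5 to 29.7 between pairs of saline libraries and 42.7 to 121 between pairs of LPS libraries. In KO LPS, AKI-156 was at 101 and 97.6 from AKI-320 and AKI-381, which were at 44.2 from each other. In WT LPS, AKI-12 was at 121 and 108 from AKI-317 and AKI-319 and AKI-13 at 94.6 from AKI-319, whereas AKI-317 and AKI-319 were at 42.7 and AKI-12 and AKI-13 at 61.7. Neither LPS group was therefore uniform.

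Cd274 (ENSMUSG00000016496, chr19:29367455-29388095, + strand, GRCm38) and Pdcd1lg2 (ENSMUSG00000016498, chr19:29410919-29471157, + strand) are neighbours separated by 22823 bases with no protein-coding gene between them. Cd80 (ENSMUSG00000075122, chr16:38458933-38486933, + strand) and Cd86 (ENSMUSG00000022901, chr16:36603869-36666081, - strand) share chromosome 16. Cd40 (ENSMUSG00000017652) lies at chr2:165055627-165072948 on the + strand. Sectm1b (ENSMUSG00000039364, chr11:121053458-121063569, - strand) lies 3837 bases from its paralog Sectm1a. An annotated antisense gene overlaps Cd274, and another overlaps Pdcd1lg2. The counting's strand setting is not given in the sources used here, so reads of the antisense genes, and reads shared by the Sectm1 paralogs, could be counted to these genes.

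The promoters of the genes that stood higher together under LPS are shown so that their bases can be set beside that pattern. RefSeq windows (GRCm38.p6) of 250 bases before the start site were at hand for 4 of the 6, and not for Cd86 and Cd40. They are written 5′ to 3′ on the gene's own strand, and capitals mark a motif match. For Cd274 the 47 bases next to the start site are given (chr19:29367391-29367437), because the rest of its window lies in exons of Plgrkt, which is read in the other direction. The others are chr19:29410669-29410918 for Pdcd1lg2, chr16:38458683-38458932 for Cd80 and chr11:121063570-121063819, - strand, for Sectm1b.
Cd274: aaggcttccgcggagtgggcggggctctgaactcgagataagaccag
Pdcd1lg2: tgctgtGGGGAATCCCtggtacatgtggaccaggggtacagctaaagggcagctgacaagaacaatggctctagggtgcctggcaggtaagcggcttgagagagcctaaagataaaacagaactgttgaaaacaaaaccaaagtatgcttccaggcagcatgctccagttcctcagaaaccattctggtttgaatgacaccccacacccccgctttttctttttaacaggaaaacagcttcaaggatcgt
Cd80: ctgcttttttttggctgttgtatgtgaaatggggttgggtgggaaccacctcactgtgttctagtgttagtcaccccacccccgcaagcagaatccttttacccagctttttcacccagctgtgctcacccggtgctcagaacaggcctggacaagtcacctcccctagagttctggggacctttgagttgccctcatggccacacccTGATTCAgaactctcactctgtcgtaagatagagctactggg
Sectm1b: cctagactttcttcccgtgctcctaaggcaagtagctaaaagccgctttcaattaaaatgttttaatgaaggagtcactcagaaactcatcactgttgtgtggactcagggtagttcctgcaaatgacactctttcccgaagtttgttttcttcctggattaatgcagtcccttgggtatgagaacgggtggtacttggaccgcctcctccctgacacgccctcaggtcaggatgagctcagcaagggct

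Both strands of each window were searched for 4 patterns. The interferon-type pattern GAAANNGAAA was in none of the 4 windows and in 2.98% of 32851 RefSeq promoter windows of the same length. TTCNNNGAA, the pattern bound by STAT factors, was also in none of the 4 and in 7.02% of all. TGANTCA, the AP-1 pattern, was in the Cd80 window at -42 to -36 from the start site and in 6.75% of all windows. The κB consensus, bound by NF-κB, was in the Pdcd1lg2 window at -244 to -235 and in 7.25% of all. A match here is a run of letters and not a measured binding site, and these windows say nothing of sites elsewhere in the genes.

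In resting kidney the order of the 6 genes, compared per length as FPKM (fragments per kilobase of gene model, scaled to library size), was the same in both genotypes. Sectm1b was highest at 2.52 ± 0.197 FPKM in WT saline (mean ± SD, n = 3), followed by Cd274 at 1.96 ± 0.354. Cd86 stood at 0.559 ± 0.0545 FPKM, Cd40 at 0.181 ± 0.0659, Cd80 at 0.0656 ± 0.0245, and Pdcd1lg2 was at 0. No neighbours in this order overlapped between libraries in WT saline, and in KO saline only Cd80 and Pdcd1lg2 did. Under LPS, Sectm1b at 67.3 ± 22.7 FPKM and Cd274 at 65.5 ± 29.4 were level in WT (n = 4), and their libraries overlapped. Cd80 (1.37 ± 0.889 FPKM), Cd40 (1.29 ± 0.299) and Cd86 (0.859 ± 0.260) followed, each overlapping the next, and all of their libraries lay above those of Pdcd1lg2 (0.221 ± 0.151). In KO LPS, Cd274 at 10.8 ± 5.82 FPKM and Sectm1b at 10.6 ± 4.14 again overlapped (n = 3). Below them, Cd40 at 0.758 ± 0.177 overlapped Cd86 at 0.531 ± 0.262, which overlapped Cd80 at 0.410 ± 0.0600, and Pdcd1lg2 was last at 0.0132 ± 0.0229. Cd80, which was well below Cd86 in saline kidney, overlapped it under LPS in both genotypes.

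**Figure D1:**
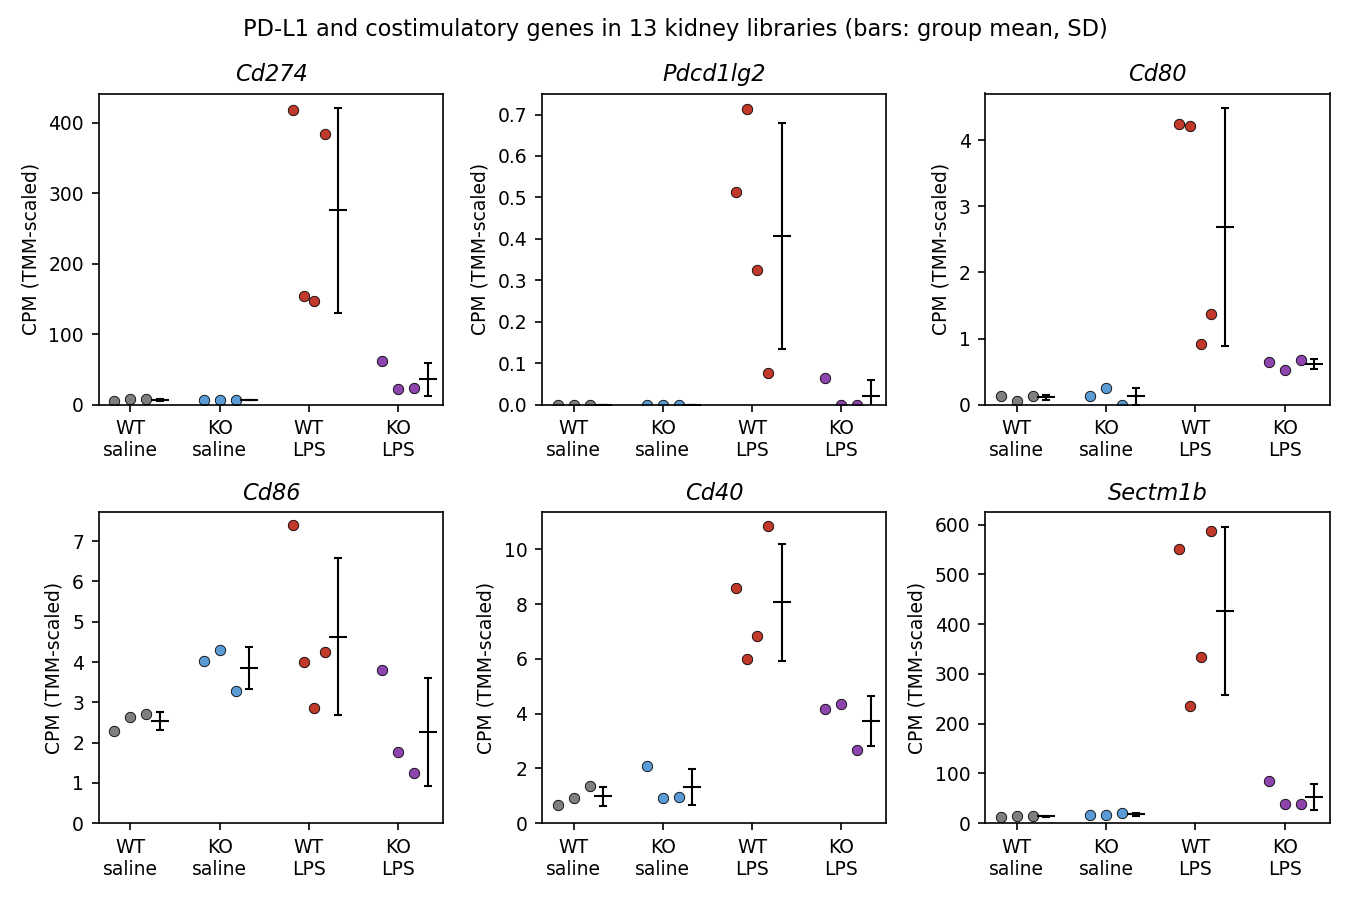
Levels of the 6 genes in each of 13 kidney libraries, in CPM (counts scaled to a common library size with TMM factors), on linear axes that differ between panels. Each point is 1 library, and the bars give the group mean and SD. Cd274 and Sectm1b in WT LPS lie between 147 and 587 CPM, far above the other groups, whereas the Cd86 points of the 4 groups lie between 1.25 and 7.40 CPM.

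Levels of a single gene are given below as CPM, counts scaled to a common library size with TMM factors. Differences between groups are log2 fold changes ± SE from 1 edgeR quasi-likelihood fit of all 13 libraries. The 4 groups share 1 estimate of spread per gene, although LPS libraries differed more from each other than saline libraries did. SE and adjusted p for KO against WT with LPS may therefore be too small. A gene is said to be called where its p, adjusted by the Benjamini-Hochberg method over all 15703 genes, was below 0.05. In whole tissue, fewer cells of a type and less RNA per cell cannot be told apart.

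Cd274 encodes PD-L1, the ligand that engages PD-1 on T cells. In saline kidney it stood at 5.54, 7.73 and 7.44 CPM in WT and at 6.09, 7.05 and 6.26 CPM in KO. The saline groups overlapped, and their log2 difference was -0.09 ± 0.47. In WT LPS it was 418 CPM in AKI-12, 154 in AKI-13, 147 in AKI-317 and 384 in AKI-319, so that AKI-12 and AKI-319 held over 2 times as much as the other 2. In KO LPS it was 62.5 CPM in AKI-156, 22.0 in AKI-320 and 23.2 in AKI-381. All LPS libraries lay above all saline libraries of their genotype, and every KO LPS library lay below every WT LPS library. The LPS difference was 5.32 ± 0.52 on the log2 scale in WT, or 39.9-fold, and 2.47 ± 0.47 in KO, or 5.54-fold. With LPS, KO against WT was -2.94 ± 0.45, which is 0.130 times the WT level, and the KO response minus the WT response was -2.85 ± 0.63. AKI-156 was the highest KO LPS library: without it the LPS difference in KO was 1.81, KO against WT with LPS was -3.61 and the difference of responses was -3.51.

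Pdcd1lg2 encodes PD-L2, the other PD-1 ligand, known mainly from dendritic cells and macrophages. Not 1 count was recorded in the 6 saline libraries. WT LPS libraries AKI-12, AKI-13, AKI-317 and AKI-319 held 7, 10, 5 and 1 counts, and in KO LPS only AKI-156 held any, with 1 count. Every WT LPS library was thus above every saline library, at levels of 0.0759 to 0.714 CPM that rest on few counts. Taking 3 counts over the group as the floor (0.0646 CPM in WT saline), the WT LPS level was at least 6.34-fold higher than WT saline. KO LPS stood at 0.0487 times the WT LPS level, with a 95% interval of 0.00118 to 0.300 from the 1 and 23 counts. Intervals and floors cover counting error only. PD-L2 transcript was not detectable in saline kidney at this depth.

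Cd80 (B7-1) encodes a ligand of CD28 and CTLA-4 that also binds PD-L1. It was close to the detection limit in saline kidney, with 2, 1 and 2 counts in WT and 2, 4 and 0 in KO. WT LPS libraries AKI-12 and AKI-13 held 4.25 and 4.21 CPM, whereas AKI-317 and AKI-319 held 0.911 and 1.37 CPM. KO LPS libraries AKI-156, AKI-320 and AKI-381 held 0.642, 0.528 and 0.683 CPM, or 9 to 12 counts each. The LPS and saline libraries did not overlap in either genotype, and with LPS the KO libraries lay below all WT libraries, the nearest of which was AKI-317. The log2 difference with LPS was 4.53 ± 0.81 in WT, on 149 against 5 counts, and 2.26 ± 0.85 in KO, on 31 against 6 counts. KO against WT was -2.10 ± 0.64 with LPS and 0.17 ± 1.06 with saline.

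Cd86 (B7-2) encodes the other ligand of CD28 and CTLA-4, which resting macrophages and dendritic cells already carry. It stood at 2.28, 2.64 and 2.70 CPM in WT saline and at 4.02, 4.29 and 3.28 CPM in KO saline. The saline groups did not overlap, with KO higher by 0.60 ± 0.41 on the log2 scale, a difference below 2 SE that was not called. WT LPS libraries held 7.40 CPM in AKI-12, 4.0 in AKI-13, 2.86 in AKI-317 and 4.25 in AKI-319. KO LPS libraries held 3.79 CPM in AKI-156, 1.76 in AKI-320 and 1.25 in AKI-381. LPS against saline was 0.86 ± 0.39 in WT, where the libraries did not overlap, and -0.77 ± 0.41 in KO, where AKI-156 lay among the saline libraries. Without AKI-156 the KO value was -1.35 and was called, and KO against WT with LPS moved from -1.03 ± 0.39 to -1.61 and was called as well. Cd86 was the one gene of the 5 tested whose LPS difference had opposite signs in the 2 genotypes, with a difference of responses of -1.63 ± 0.57 that was not called. Without AKI-156 that difference was -2.22 and was called.

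Cd40 encodes the TNF-receptor family member through which helper T cells activate macrophages, B cells and dendritic cells. WT saline libraries held 0.652, 0.920 and 1.35 CPM, and KO saline libraries 2.07, 0.919 and 0.954 CPM. In WT LPS it stood at 8.57 CPM in AKI-12, 6.00 in AKI-13, 6.83 in AKI-317 and 10.9 in AKI-319. In KO LPS it stood at 4.17, 4.34 and 2.67 CPM in AKI-156, AKI-320 and AKI-381. The 3 ranges were in order, with all saline libraries lowest, KO LPS between and WT LPS highest. The LPS difference was 3.04 ± 0.40 in WT and 1.5 ± 0.39 in KO. KO against WT was -1.11 ± 0.35 with LPS and 0.43 ± 0.42 with saline. Unlike Cd274 and Cd86, Cd40 was not highest in AKI-156 among the KO LPS libraries.

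Sectm1b encodes a mouse member of the SECTM1 family, whose human member is known as a ligand of CD7 on T and NK cells. Its saline levels were 12.5, 14.2 and 14.0 CPM in WT and 16.6, 15.7 and 20.3 CPM in KO. These groups did not overlap, and KO stood higher by 0.37 ± 0.35 on the log2 scale, about 1 SE. In WT LPS it was 550 CPM in AKI-12, 235 in AKI-13, 333 in AKI-317 and 587 in AKI-319. In KO LPS it was 83.8 CPM in AKI-156, 38.2 in AKI-320 and 38.0 in AKI-381. The 4 ranges were apart from each other, with WT LPS far above KO LPS. LPS against saline was 4.97 ± 0.40 in WT, or 31.4-fold, and 1.60 ± 0.35 in KO, or 3.04-fold. KO against WT with LPS was -3.0 ± 0.36, or 0.125 times the WT level, and the difference of responses was -3.37 ± 0.49. Without AKI-156 the LPS difference in KO was 1.12, KO against WT with LPS was -3.48 and the difference of responses was -3.85. Its paralog Sectm1a, which is less abundant, rose in WT by 3.04 ± 0.57 (edgeR adjusted p = 0.000542), from 0.613 ± 0.321 to 5.08 ± 1.61 CPM. In KO the Sectm1a difference was 0.43 ± 0.56 and did not pass, and with LPS KO was below WT by a log2 value of -1.72 ± 0.52 (edgeR adjusted p = 0.0403).

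**Figure D2:**
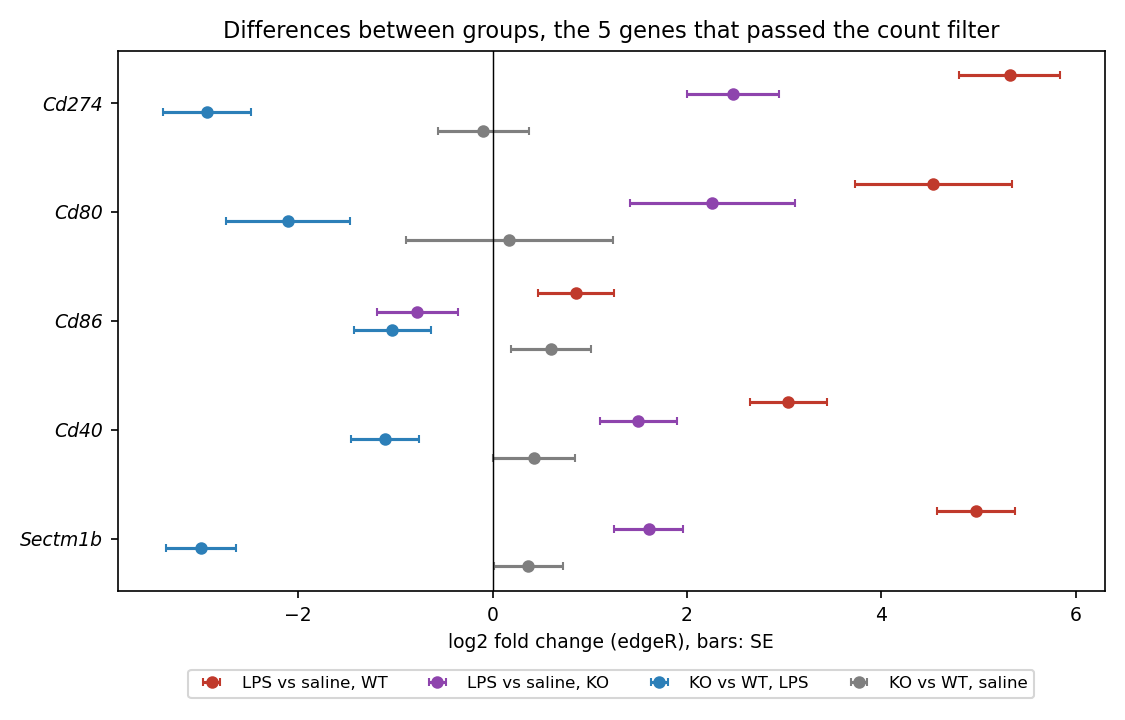
Log2 fold changes of the 5 genes that passed the count filter, from 1 edgeR fit of 13 libraries; points are estimates and bars are SE. Red and purple show LPS against saline in WT and KO, blue KO against WT with LPS and grey KO against WT with saline. For Cd274 and Sectm1b, red lies near 5 (5.32 and 4.97) and blue near -3 (-2.94 and -3.0), and the grey points lie between -0.09 and 0.60.

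Counted over the genes, LPS in WT went with 4 higher calls among the 5 tested, Cd274, Cd80, Cd40 and Sectm1b, where 57.0% of all tested genes were called, 28.4% higher and 28.6% lower. The libraries of all 6 genes were apart in that comparison, as were those of 59.5% of tested genes. In KO 3 of 5 were called higher, Cd274, Cd40 and Sectm1b, against 27.6% of all genes called, 14.7% higher and 12.9% lower, and the libraries of 4 of 6 were apart against 45.5%. With LPS, 4 of 5 were called lower in KO than in WT, all but Cd86, against 15.0% of all genes called, 8.71% higher and 6.27% lower, and the libraries of 5 of 6 were apart against 18.2%. For the difference of the LPS responses, 2 of 5 were called lower, Cd274 and Sectm1b, against 2.11% of all genes called, 1.36% higher and 0.751% lower. With saline none of the 5 was called, where 0.0191% of all genes were, 0.00637% higher and 0.0127% lower, or 3 genes. With saline, 582 of 15703 genes had an unadjusted p below 0.05 (edgeR), fewer than that threshold would give with no difference at all. DESeq2 called 11 higher and 14 lower. The libraries of 2 of 6, Cd86 and Sectm1b, were apart there with KO higher, against 19.9% of genes. The median log2 difference of the 5 was 4.53 for LPS in WT and 1.60 in KO, beside 0.00 and 0.03 over all tested genes. For KO against WT it was -2.10 with LPS and 0.37 with saline, beside -0.00 and 0.01 over all genes. Since the genes were picked with these results known, nothing is read from these counts.

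The calls were not equally firm. Cd274 and Sectm1b were called lower in KO than in WT with LPS under all 19 other settings and left-out libraries, whereas Cd80 was lost in 12 of 19 and Cd40 in 14 of 19. With WT saline N1, N2 or N3, WT LPS AKI-12, or KO LPS AKI-320 or AKI-381 left out, Cd274 and Sectm1b were the only 2 called. Scaling to library totals without TMM factors also left these 2, and moved the whole comparison: 87.4% of its calls were then higher in KO (3323 against 477), against 58.1% with TMM (1367 against 985), and the median of all genes moved from -0.00 to 0.34. For LPS against saline in KO the share of higher calls moved from 53.3% (2310 against 2024) to 70.1% (3146 against 1340). For the difference of responses it moved from 64.5% (214 against 118) to 89.5% (801 against 94), with a median of 0.37. With library totals, KO against WT with LPS was -2.60 for Cd274 and -2.67 for Sectm1b, and the sign of each of the 5 genes in these 3 comparisons was kept. For the difference of responses, Cd274 was lost with any 1 of the 6 saline libraries, AKI-12, AKI-319, AKI-320 or AKI-381 left out, and Sectm1b without WT saline N1 or KO saline N3. Cd40 was no longer called for LPS in KO without KO saline N2 or N3.

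Among themselves, the 5 tested genes differed most in how far Cd86 followed the others. Likeness was measured as the root mean square (RMS) difference between 2 genes' log2 CPM profiles over the 13 libraries after centring each. The smallest value, 0.370, was between Cd274 and Sectm1b, and the largest, 2.10, between Cd274 and Cd86. Cd80 and Cd40 were 0.799 apart. The 2 genes with the most similar profiles are thus a PD-1 ligand and a SECTM1 family member on different chromosomes, both highest in AKI-319 and AKI-12 among WT LPS libraries and in AKI-156 among KO LPS libraries.

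Over 13020 named genes with a mean of at least 1 CPM, the closest profiles to Cd274 were Gbp4 (0.329), Ccl20 (0.370), Sectm1b (0.370), Tifa (0.440) and Gbp7 (0.453). Gbp4 and Gbp7 encode interferon-inducible guanylate-binding proteins, Ccl20 a chemokine and Tifa an adaptor of NF-κB signalling. Gbp4 stood at 15.6 ± 4.55 CPM in WT saline, 526 ± 245 in WT LPS and 105 ± 52.1 in KO LPS. Ccl20 had 0 counts in all saline libraries, 245 in WT LPS and 18 in KO LPS, so its profile there is set by the prior count. Closest to Sectm1b were Ccl20 (0.308), Cd274 (0.370) and Samhd1 (0.380), an interferon-inducible nucleotide hydrolase. Closest to Cd80 were Tnfaip3 (0.354), which encodes the NF-κB inhibitor A20, Herc6 (0.526) and Car13 (0.545). Closest to Cd40 were Parp10 (0.299), Uba7 (0.315) and Nfkbia (0.325), the last encoding the NF-κB inhibitor IκBα. Closest to Cd86 were mt-Nd1 (0.257), Usmg5 (0.257) and Zfp945 (0.265). The SD of log2 CPM over the 13 libraries was 0.62 for Cd86 and 0.42 to 0.51 for these 3 genes, beside 1.31 to 2.38 for the other 4 tested genes. With a prior count of 0.5 in place of 2, 4 of the 5 genes named for Cd274 were named again, 2 of 3 for Sectm1b and Cd40, 3 of 3 for Cd86 and 0 of 3 for Cd80, whose list rests on that choice.

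**Figure D3:**
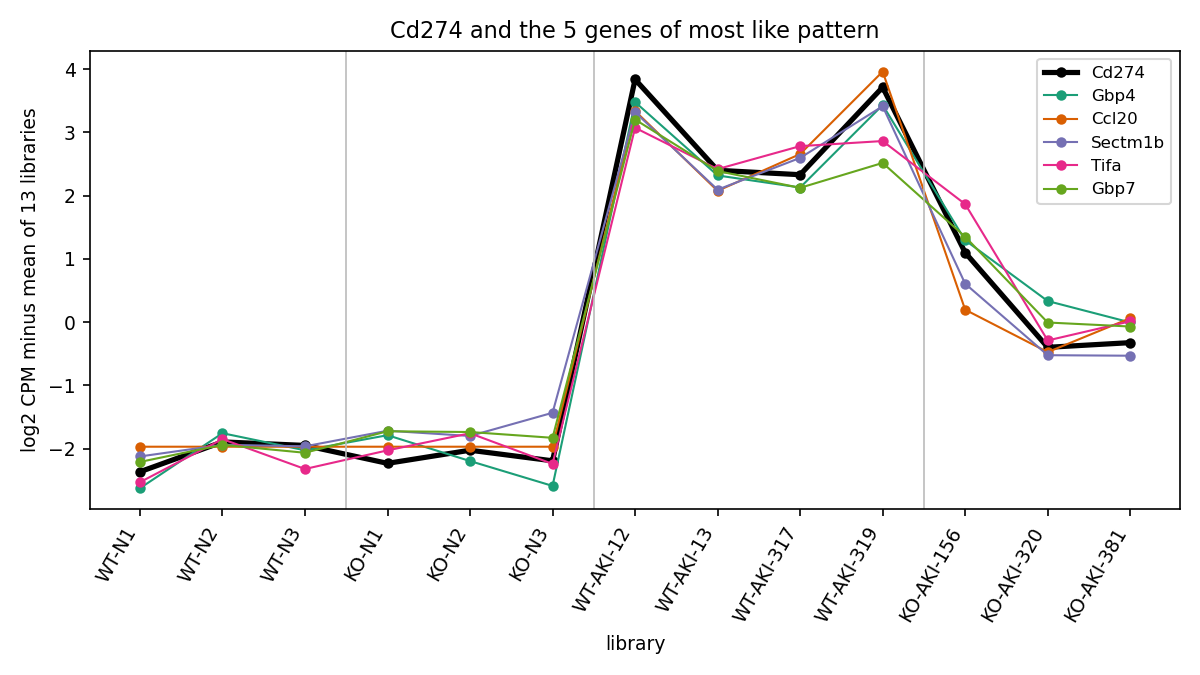
Log2 CPM of Cd274 (black) and the 5 genes of most similar profile in each of 13 libraries, centred on each gene's own mean; grey lines divide the 4 groups. All 6 lines are lowest in the saline libraries, highest in WT LPS and between in KO LPS, where AKI-156 is the highest library. Ccl20 is flat in saline because it has 0 counts there.

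The genes next to Cd274 and Pdcd1lg2 on chromosome 19 are given beside them. Plgrkt, a plasminogen receptor gene whose annotated start lies 64 bases from that of Cd274, stood at 20.8 ± 4.18 CPM in WT saline, 24.5 ± 4.0 in WT LPS and 22.3 ± 3.11 in KO LPS. Its LPS difference was 0.23 ± 0.18 in WT (edgeR adjusted p = 0.294) and -0.15 ± 0.19 in KO (edgeR adjusted p = 0.615). Ric1, beyond Pdcd1lg2, differed by 0.01 ± 0.24 in WT and -0.14 ± 0.26 in KO (edgeR adjusted p = 0.967 and 0.740). With LPS, KO against WT was -0.13 ± 0.18 for Plgrkt and -0.06 ± 0.24 for Ric1, and neither passed.

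Of 68 receptors, signalling genes and other ligands in 7 lists around the 6 genes, 53 were tested. In WT kidney 33 of the 53 rose with LPS and 3 fell, beside 28.4% and 28.6% of all tested genes. In KO 24 rose and 1 fell, beside 14.7% and 12.9%. Some of the 53, such as Ctla4, Pdcd1, Lag3, Tnfrsf9, Tnfrsf18 and Ido1, passed the count filter through LPS libraries alone. Such genes could enter these counts, and those of the lists below, only by being higher with LPS. The risers were uneven between lists: none of 2 tested TNF-family ligands rose in WT, and 2 of 6 other B7-type ligands did. In WT the lists' median was 1.51 and in KO 0.93 on the log2 scale, beside 0.00 and 0.03 for all tested genes. The lists were drawn up with earlier results of these data known.

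Interferon signalling and PD-L1 handling was the list with the most risers. In WT 10 of 13 tested genes rose and none fell, and in KO 9 rose and none fell. Irf8, an interferon-responsive factor of myeloid cells, rose by 2.98 ± 0.28 in WT (edgeR adjusted p = 2.38e-06) and by 1.68 ± 0.28 in KO (edgeR adjusted p = 0.000622). Stat3, a factor that carries cytokine signals to the nucleus, rose by 2.56 ± 0.25 in WT and by 1.73 ± 0.25 in KO. With LPS 4 of the 13 were lower in KO than in WT. Irf1, a factor known to act on the PD-L1 promoter, was lower than in WT by a log2 value of -1.46 ± 0.30 (edgeR adjusted p = 0.00901). It stood at 90.7 ± 34.9 CPM in WT LPS and 33.1 ± 4.22 in KO LPS. Irf8 was lower by a log2 value of -1.22 ± 0.26 (edgeR adjusted p = 0.0101) and Socs1, the feedback inhibitor of interferon signalling, by -2.79 ± 0.65 (edgeR adjusted p = 0.0142). The fourth was Ptpn2, a tyrosine phosphatase. Ifng, which encodes interferon gamma, had 4, 3, 11 and 3 counts in WT saline, KO saline, WT LPS and KO LPS. It was too low to be tested. The part of these genes in the level of Cd274 was not tested.

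Of 11 CD40 signalling genes, 8 rose with LPS in WT and Traf5 fell, and in KO 6 rose. Relb and Birc3, a subunit of the non-canonical NF-κB dimer and a ubiquitin ligase recruited to CD40, rose in WT by 3.23 ± 0.29 and 3.94 ± 0.36 (edgeR adjusted p = 1.42e-06 and 1.64e-06). In KO they rose by 1.91 ± 0.28 and 2.64 ± 0.35 (edgeR adjusted p = 0.000247 and 9.54e-05). With LPS 4 were lower in KO than WT and none higher: Tnfaip3 at -2.39 ± 0.51 (edgeR adjusted p = 0.0101), Map3k14, the kinase of the non-canonical pathway, at -0.78 ± 0.18 (edgeR adjusted p = 0.0136), Relb at -0.99 ± 0.25 (edgeR adjusted p = 0.0218), and Birc3.

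Other B7-type ligands split. Vtcn1 (B7-H4), an inhibitory ligand of epithelia, rose by 5.27 ± 0.50 in WT (edgeR adjusted p = 2.38e-06) and by 4.27 ± 0.50 in KO (edgeR adjusted p = 4.01e-05). Its libraries held 0.326 to 2.52 CPM in WT saline and 34.4 to 65.9 CPM in WT LPS, and 19.9 to 32.4 CPM in KO LPS. Between the LPS groups its difference of -0.98 ± 0.39 did not pass. Ildr2 fell in WT by 2.29 ± 0.42, and Icosl, the ligand of ICOS, rose in KO by 0.97 ± 0.30. Vsir (VISTA), an inhibitory ligand of myeloid cells, and Ildr2 were higher in KO than WT with LPS, by 1.05 ± 0.27 and 1.51 ± 0.41 (edgeR adjusted p = 0.0228 and 0.0276), whereas Sectm1a was lower. Of 6 tested in this list, 2 rose and 1 fell in WT, and 2 rose in KO.

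Another list held T-cell receptors, the known partners of the 6 genes' products together with other receptors such as Lag3, Havcr2 and Icos, and most stood low. Of 11 listed, 7 were tested, and in WT LPS 4 rose, Ctla4, Pdcd1, Lag3 and Havcr2, while edgeR called none in KO or between the LPS groups, where 2 and 2 had an unadjusted p below 0.05. Of the 4, Ctla4, Pdcd1 and Lag3 passed the count filter through LPS libraries alone, so their rise is given as a description. Ctla4, the inhibitory receptor of CD80 and CD86, had 125, 42, 56 and 19 counts in WT LPS and 2 counts in all of WT saline, with a 95% counting interval of 27.4 to 830 for their ratio. In KO LPS 47 of its 51 counts were in AKI-156. Pdcd1, which encodes PD-1, had 69 counts in WT LPS and 3 in WT saline, with an interval of 6.24 to 94.4 for the ratio. Lag3 rose in WT by 3.36 ± 0.68, from 0 to 6 counts in each WT saline library to 18 to 41 in each WT LPS library. Cd28 stood at 0.474 ± 0.360 CPM in WT saline and 0.591 ± 0.390 in WT LPS, a difference that did not pass. Cd40lg, the partner of CD40, had 8, 1, 0 and 1 counts in the 4 groups in the order above, and Cd7, the receptor named for the SECTM1 family, 9, 10, 3 and 1. Both were too low to be tested.

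Among TNF-family costimulatory genes, 3 of 5 tested receptors rose and 1 fell in WT. Tnfrsf9 (4-1BB) rose by 6.14 ± 0.45 in WT, from 1 to 2 counts in each WT saline library to 99 to 131 in each WT LPS library. It passed the count filter through LPS libraries alone, so its rise is given as a description. In KO it had 1 count in the saline group and 134 in the LPS group, a ratio of 131 with a 95% counting interval of 23.1 to 5207. With LPS it was lower in KO by a log2 value of -1.60 ± 0.31 (edgeR adjusted p = 0.00695). Tnfrsf25 (DR3) fell in WT by 3.20 ± 0.59, from 35 to 43 counts in each WT saline library to 1 to 8 in each WT LPS library. With LPS it was higher in KO than WT by 2.32 ± 0.60, with 7 to 34 counts in each KO LPS library. The LPS libraries of the genotypes overlapped, and that call was lost without AKI-320 or AKI-381. Of 7 ligands in that family 2 were tested, and Tnfsf9, the ligand of Tnfrsf9, rose in KO by 1.88 ± 0.55 (edgeR adjusted p = 0.0217), while its WT difference of 1.28 ± 0.53 did not pass.

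Other ligands of T-cell and NK-cell receptors rose in 6 of 9 in WT, and in KO 5 rose and Ceacam1 fell. Cd47, the signal that restrains phagocytes, rose by 2.40 ± 0.18 in WT (edgeR adjusted p = 4.49e-07) and 1.37 ± 0.18 in KO (edgeR adjusted p = 0.000104). It went from 51.4 ± 2.67 to 271 ± 40.8 CPM in WT and from 60.9 ± 3.19 to 158 ± 35.2 CPM in KO. Its responses differed by -1.03 ± 0.25 (edgeR adjusted p = 0.0491), the only call for that comparison among the 53 genes. That call was lost with any 1 of 11 libraries left out (edgeR adjusted p from 0.0611 to 0.134), and was kept without AKI-13 (0.0391) or AKI-156 (0.0040). Pvr and Lgals9 rose in both genotypes, by 2.70 ± 0.23 and 2.77 ± 0.25 in WT, and with LPS were lower in KO by log2 values of -1.02 ± 0.21 and -1.12 ± 0.23 (edgeR adjusted p = 0.00927 and 0.00904). Ido1, the tryptophan-degrading enzyme of tolerance, had 0 counts in KO saline and 62 in KO LPS, at least 20.2-fold higher with a floor of 3 counts over the group.

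With LPS, 15 of the 53 genes in all were lower in KO than WT and 3 higher, against 6.27% and 8.71% of tested genes, and their median was -0.52. Between the saline groups edgeR called none of the 53, DESeq2 called 0, and 1 had an unadjusted p below 0.05. These LPS counts rest on few libraries: without AKI-381 or AKI-320 the 15 became 2 and 5, and the 3 became 0. They also rest on the spread shared with the saline libraries. With only the LPS groups in the fit, which leaves out no LPS library, the 15 became 1 and the 3 became 0. Over all genes, 1367 higher and 985 lower calls then became 48 and 54. Without AKI-156, 19 were lower and 5 higher, 16 of the 18 calls were kept, and Sectm1a and Icam1 were lost. For the difference of responses the 1 call became 11 lower and 2 higher without AKI-156. For LPS in KO 23 of 25 calls were kept without it, and Jak1 and Socs1 were lost. Birc3, at 119 CPM in AKI-156 and 44.6 and 51.9 in the other KO LPS libraries, then stood at 2.07 in place of 2.64 for LPS in KO, and Stat3, at 442 CPM against 186 and 277, at 1.35 in place of 1.73.

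**Figure D4:**
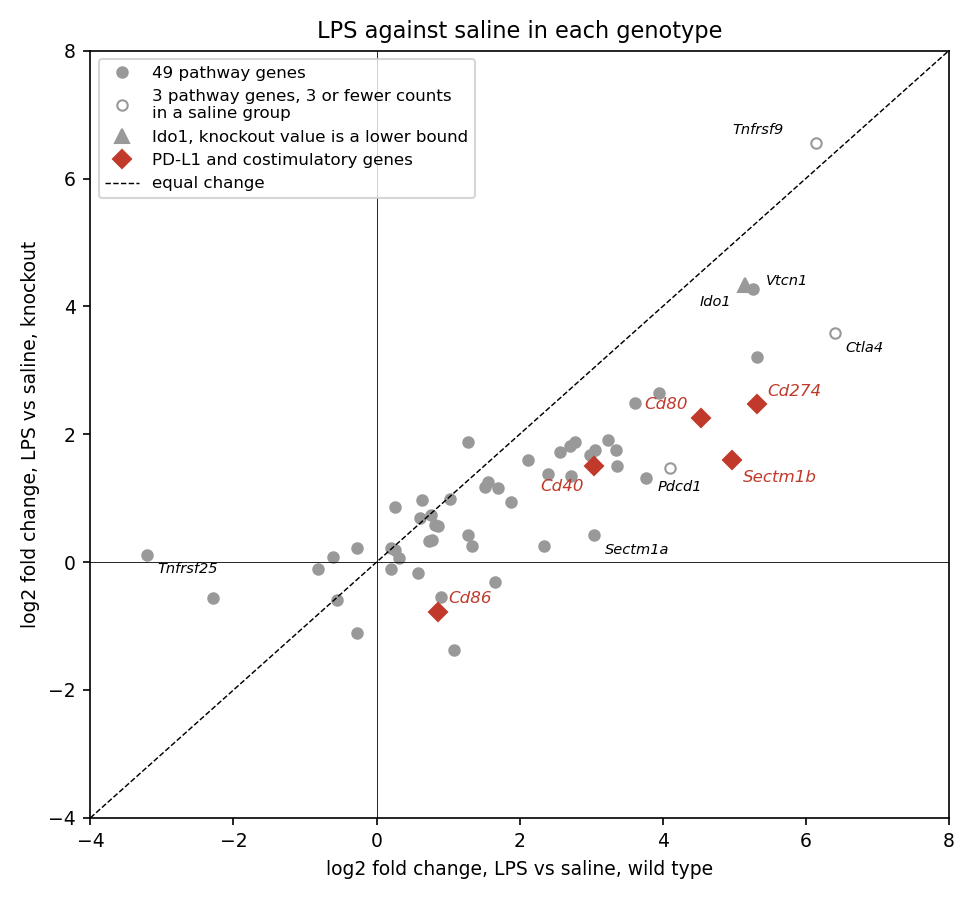
Log2 fold change of LPS against saline in WT (horizontal) and KO (vertical) for 52 tested genes of the 7 lists (grey circles), Ido1 at its lower bound in KO (triangle) and the 5 tested PD-L1 and costimulatory genes (red). Points below the dashed line of equal change have a lower log2 fold change in KO than in WT. Cd274 lies at 5.32 and 2.47 and Sectm1b at 4.97 and 1.60, both below that line. The 3 open circles, Ctla4, Pdcd1 and Tnfrsf9, had 3 or fewer counts over a saline group, and their position rests on those counts.

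Markers of the cells that could carry these molecules did not all move with them. The summed level of 10 macrophage markers was 175 to 201 CPM in WT saline, 210 to 243 in KO saline, 128 to 144 in WT LPS and 192 to 221 in KO LPS. In that sum 1 marker alone had a mean of 71.2 CPM over the libraries, and its difference between the LPS groups, 0.07 ± 0.16, did not pass. With LPS 7 of the 10 were higher in KO than WT and none lower, beside 8.71% and 6.27% of all tested genes. Cd274, Cd80, Cd40 and Sectm1b stood lower in KO. The 7 include C1qa, C1qb and C1qc, whose KO against WT difference with saline was 0.61 ± 0.29, 0.45 ± 0.21 and 0.64 ± 0.24, not called. LPS in WT went with 3 higher and 4 lower macrophage markers, beside 28.4% and 28.6% of all tested genes. In KO it went with 5 higher and 2 lower, beside 14.7% and 12.9%. Of 8 dendritic cell markers, Flt3, Xcr1, Clec9a, Cd209a and Itgax fell with LPS in WT and Ccr7 and Batf3 rose. In KO Xcr1 and Cd209a fell and Ccr7 rose. The shares of all tested genes are those just given. Xcr1 was at 0 in both LPS groups and Cd209a in KO LPS. Xcr1 and Cd209a passed the count filter through saline libraries alone and Ccr7 through LPS libraries alone. Each could therefore be called in 1 direction only with LPS. The median log2 difference of the 8 in WT, which holds their values, was -1.48. The sum of the 8 markers was 16.4 to 22.6 CPM in the saline libraries, 18.2 to 23.8 in WT LPS and 15.0 to 22.2 in KO LPS. Zbtb46 alone had a mean of 11.9 CPM over the libraries. Of these 8 markers, Ccr7 alone was lower in KO with LPS, at 9.06 ± 3.10 CPM in WT LPS and 1.56 ± 1.25 in KO LPS. B-cell markers summed to 0.847 to 3.79 CPM over all libraries. T and NK cell markers summed to 4.11 to 5.47 CPM in WT saline, 4.84 to 7.40 in KO saline, 1.57 to 3.57 in WT LPS and 3.93 to 5.39 in KO LPS, so that WT LPS, where Ctla4, Pdcd1 and Lag3 rose, lay below WT saline and KO LPS. Of the 8, 4 were tested, and edgeR called none in WT with LPS or between the LPS groups, where 2 and 0 had an unadjusted p below 0.05.

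Neutrophil markers differed between libraries of 1 group. They summed to 1.22 to 2.21 CPM in saline kidney, with Ly6g and Mmp8 at 0 in both genotypes, to 146, 97.5, 33.2 and 31.7 CPM in WT LPS AKI-12, AKI-13, AKI-317 and AKI-319, and to 189, 31.0 and 26.7 CPM in KO LPS AKI-156, AKI-320 and AKI-381. The libraries with most Cd80, AKI-12 and AKI-13, were those with most neutrophil marker in WT LPS. In KO LPS, AKI-156 had most Cd274, Sectm1b and Cd86. It did not have most Cd80 (0.642 CPM, against 0.683 in AKI-381) or most Cd40 (4.17 CPM, against 4.34 in AKI-320). AKI-319, high in Cd274, Sectm1b and Cd40, had the least neutrophil marker in WT LPS. Endothelial markers summed to 662 to 755 CPM in WT saline, 698 to 747 in KO saline, 391 to 545 in WT LPS and 602 to 777 in KO LPS. Markers of the proximal tubule, which mark these samples as kidney, summed to 6300 to 7346 CPM in WT saline and 949 to 1801 in WT LPS. In KO they summed to 5879 to 6790 CPM with saline and 860 to 1250 with LPS. Podocyte markers summed to 468 to 495 CPM in WT saline, 403 to 520 in KO saline, 141 to 304 in WT LPS and 247 to 437 in KO LPS. The part of these cell markers in the levels of the 6 genes was not tested.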

How the data were processed

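RNA of mouse renal tissue was sequenced in 13 libraries. The authors deposited 1 table of 34745 genes that holds, per the file headers, counts and FPKM of each library. Its 26 value columns carry the sample titles. Counts were whole numbers as deposited. The deposited FPKM equal counts per kilobase scaled to the library's total, with gene lengths that agree across libraries within 0.058%. HISAT2, edgeR, TopHat and TopHat2 2.0.9 appear in the submitters' processing notes without a stated role, beside the human build hg38. The identifiers are mouse: 34344 were found in GENCODE M21 (GRCm38), all on the same chromosome, and 80.9% with the same start and end. The tool that counted reads and its strand setting are not given in the sources used here.

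The counts were tested in R 4.3.3 with edgeR 4.0.16: filterByExpr with a minimum count of 10, TMM factors (0.7726 to 1.193), 1 quasi-likelihood fit with a mean per group over all 13 libraries, and Benjamini-Hochberg adjustment over 15703 genes at 0.05. SE is the log2 fold change divided by the square root of F. The code was tested on simulated data. Log2 CPM used a prior count of 2. FPKM were used only for the order of levels. Replicates of a group differed by a chi-square per degree of freedom of 12.47 to 121.5 over genes with at least 20 summed counts, so none was counted as a repeat. Vsir and Nectin2 were matched by identifier.

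The 6 genes and the 7 pathway lists and 8 marker lists were chosen with earlier results of these data known. Named besides the 6 are, per list and comparison, up to 3 called genes of smallest p or, with none called, up to 2 of highest mean; Gstk1, Xist and Ddx3y; the neighbours and Sectm1a; and the genes of most like profile. Others named to spell out a count were chosen after their values were seen. Of the listed genes, 1 is counted but not reported by name here. Alternatives were RLE factors, library totals, no filter, DESeq2 1.42.0, a fit of only the groups compared, a replicate block and each library left out.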

Additional observations from a re-analysis of the deposited data

Results flagged for a closer look

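The KO response to LPS minus the WT response, the interaction term of the edgeR fit adjusted over 15703 genes, was below the threshold for Cd47, at -1.03 ± 0.25 on the log2 scale (edgeR adjusted p = 0.0491). That call was lost with 11 of the 13 libraries left out in turn. Among the genes picked with results known, the same term was -2.85 ± 0.63 for Cd274 and -3.37 ± 0.49 for Sectm1b, which are descriptions and no test of these genes. They were not called in 11 and 3 of 18 other settings. In the 4 WT LPS libraries, the levels of the 6 genes and the sums of the 8 marker lists, 14 sets of values, held no library far from the rest by Dixon's ratio, a test that chance alone trips in about 1 of 20 sets. The ratio looks for 1 library apart and would miss a split into pairs. The groups of 3 libraries, KO LPS with AKI-156 among them, were not checked. It therefore does not show that the LPS groups were uniform.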

How the results depend on the processing

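Of 468 recomputed log2 fold changes of the 5 tested PD-L1 and costimulatory genes, 458 moved by less than the SD between replicates and 10 by more. A change of sign was counted only for values called in the main fit, and 0 of those reversed. Uncalled values could change sign. For KO against WT with saline, Cd80 ranged from -0.74 to 0.74 around a main value of 0.17. Cd40 ranged there from -0.05 to 0.73 around 0.43. The other counts of calls stayed within 1.5 times, and the cause of the following moves was not tested. For KO against WT with LPS, the 4 lower calls of these genes became 2 with library totals and 2 with only the groups compared, and 2 to 4 with a library left out. In that comparison the 53 listed genes, 3 higher and 15 lower, gave 6 higher with library totals, 0 higher and 1 lower with only the groups compared, and 0 to 5 higher and 2 to 19 lower with a library left out. For the difference of responses, the 2 lower calls became 0 to 3 with a library left out, and the listed genes, 0 higher and 1 lower, gave 1 higher and 0 lower with library totals, 1 and 0 with no filter, 1 and 7 by DESeq2, and 0 to 2 and 0 to 11 with a library left out. For LPS in KO the lower calls were 0 to 1 of the 5 genes and 1 to 2 of the listed genes with a library left out. Over all genes, KO against WT with LPS (1367 higher and 985 lower) gave 48 and 54 with only the groups compared, 1638 lower by DESeq2, and 348 to 2434 higher and 172 to 2106 lower with a library left out. The difference of responses (214 and 118) gave 786 and 613 by DESeq2, and 5 to 1415 and 5 to 1115 with a library left out. KO against WT with saline (1 and 2) gave 5 and 4 with only the groups compared. With a library left out it gave 1 to 2 higher and 0 to 2 lower. Cd86 was added for LPS in WT in 2 of 19 settings, Cd80 for LPS in KO in 3 of 18, and Cd40 was lost there in 3 of 19. Cd86 was also added for LPS in KO in 1 of 19, for KO against WT with LPS in 2 of 19 and for the difference of responses in 1 of 18, each time without AKI-156 and once by DESeq2. For the difference of responses Cd274 was lost in 11 of 18 and Sectm1b in 3 of 18.

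The saline libraries of both genotypes carry the numbers N1 to N3. Same-numbered libraries did not deviate together (correlations of 0.0179, -0.0501 and -0.0299), so the numbers were not taken as pairs. With a replicate block on them, KO against WT with LPS gave 2 lower calls of the 5 genes, and the difference of responses gave 0 lower calls of the 5 and 0 lower calls of the listed genes. Over all genes that block gave 1182 higher and 1047 lower for LPS in KO, 774 and 559 for KO against WT with LPS, and 5 and 4 for the difference of responses. In that fit LPS in KO was measured against saline at the level of N1, not against the mean of N1 to N3. Its counts, and the Cd40 call lost there with the block, are therefore not set against the main fit on equal terms.

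With 3 or 4 libraries a group, Pdcd1lg2 and Cd80 rest on at most 59 counts a library, and differences of either gene in saline kidney were not detectable at this depth.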
